A study of Mus musculus with 20 samples.

Results

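The comparison described here is the difference between 2 testosterone responses in mouse ventral prostate, that of males with an altered androgen receptor minus that of wild-type males. It uses all 20 of the 20 libraries of the series, taken by their labels for genotype and treatment. Every mouse had been orchidectomised, so the testes as a source of androgen were removed in all 4 groups. Wild type males (C57BL/6J; WT) received vehicle or testosterone for 4 days, and ARNoC/Y males (ARNoC) received vehicle or testosterone for 4 days, with 5 libraries in each of the 4 groups. The sources used here do not give the dose of testosterone, the age of the mice, the altered residues of the receptor, or whether each library came from a separate animal, so the p-values rest on library-to-library spread, which may be technical. The labels do not give the strain background of the ARNoC males. The altered sequence cannot be seen in counts per gene, and the genotype labels were not checked.

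The androgen receptor is a transcription factor that binds testosterone or dihydrotestosterone, moves to the nucleus and binds DNA as a dimer. After hormone binding its amino-terminal domain contacts the carboxyl-terminal ligand-binding domain, a contact called the N/C interaction, which the ARNoC receptor is designed to lack. In the prostate the receptor drives secretion by luminal epithelial cells, and castration makes the gland regress until androgen returns. The difference of responses asks which genes need the contact for their response to testosterone to have the size seen in WT.

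Libraries held 8861646 to 21600352 counts, and 15261 genes had at least 10 normalized counts in at least 5 libraries. All 15 luminal markers were detected in every group, with a summed level per library of 71227 to 116785 normalized counts, and 9 of 10 seminal vesicle genes did not pass the filter on low values. Some libraries stood apart in tissue makeup. Within their groups, summed fibroblast marker levels were lowest in library 2 of WT vehicle (26070), of WT testosterone (24273) and of ARNoC testosterone (22611). In ARNoC vehicle the lowest was library 5 (13551). Library 2 of ARNoC testosterone is not among the libraries called stroma-poor below. WT testosterone library 5 and ARNoC vehicle library 5 had far higher levels of Upk2, a urothelial gene, and of Ly6d than the other 18 libraries. The urothelial gene Upk1a was highest in neither (8688 in a group of 7339 to 8786, and 7991 in one of 6626 to 8606). Upk1b was highest of its group in the WT library (1600) but not in the ARNoC library (3854, against up to 4639).

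No single gene passed the test for a different response, and most genes had responses that were alike to within 2-fold. The quasi-likelihood test of edgeR, adjusted by Benjamini-Hochberg over 15261 genes, called 0 (0%), with a lowest adjusted p of 0.0666. At an unadjusted p under 0.05 there were 1306 genes, where an even spread of p-values gives 763. The difference of responses (ARNoC minus WT, log2) was positive in 501 of these (3.28% of genes tested) and negative in 805 (5.27%). In counts of genes below, higher and lower mean a positive and a negative difference of responses, not a level in ARNoC. DESeq2 on the same counts called 29 genes (0.190%), of which 12 were higher and 17 lower. limma-trend called 1 with a pseudocount of 1 and 0 with a pseudocount of 5, and limma-voom called 0. The whole 95% interval of the difference lay within 2-fold in either direction for 10670 genes (69.9%) and within 1.5-fold for 7693 (50.4%). It lay wholly beyond 2-fold for 24 genes (0.157%). The 4591 genes not inside 2-fold, these 24 included, had an interval that reached 2-fold or more, and their median level was 28.5 normalized counts, against 454 for those inside. Their intervals leave room for a 2-fold difference. Replicates spread well beyond counting error, and the part of depth in these intervals was not tested.

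Both genotypes answered testosterone broadly. In WT 5985 genes (39.2%) changed and in ARNoC 5527 (36.2%), and the mean of both responses passed the test for 7961 genes (52.2%). Below, rose and fell are used only of a response with an adjusted p under 0.05 in that genotype by edgeR's quasi-likelihood test. Where the 95% intervals of both responses excluded 0, the direction was shared by 5105 of 5116 genes (99.8%). Over genes called for the mean response, the ARNoC response followed the WT response with a slope of 0.91 and Pearson's r was 0.90. Over all genes tested r was 0.80. The mean response is independent of the difference in this balanced design, but choosing genes by it raises r by itself. Both r are across genes, which share the same 20 libraries and are not independent replicates.

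**Figure D1:**
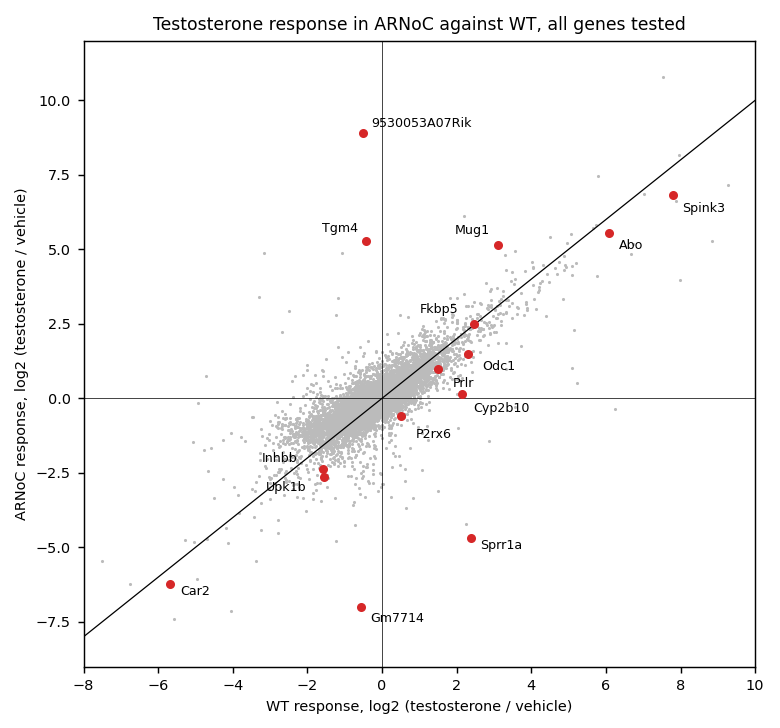
Testosterone response in ARNoC (vertical axis, log2 of testosterone over vehicle) against that in WT (horizontal axis, the same unit) for the 15261 genes tested, with the line of equal responses and named genes in red. Most genes lie along the line, while Cyp2b10, P2rx6, Gm7714 and Sprr1a lie below it and Mug1, Tgm4 and 9530053A07Rik above it, none of them past edgeR's adjusted threshold.

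The size of the response as a whole overlapped between the genotypes. The share of genes with the smaller response in ARNoC varied with the size of the response and with the scaling of the libraries. Each testosterone library was scored by its distance from the vehicle mean of its genotype along the mean response of both genotypes, where 1 is a response equal to that mean. The WT libraries scored 0.98 ± 0.10 (SD, n = 5; 0.82 to 1.10) and the ARNoC libraries 0.90 ± 0.09 (SD, n = 5; 0.82 to 1.03), and the 2 sets overlapped. Among the 3243 genes with a mean rise of less than 1 on the log2 scale, the median difference was -0.04, and 58.0% had the smaller response in ARNoC. For the 557 with a rise of 1 to 2 these were 0.00 and 49.9%, and for the 118 with a rise of 2 to 3, -0.03 and 51.7%. Over all responsive genes the share with the smaller response in ARNoC was 54.9%, near the 53.3% over all genes tested. Among the 90 with a mean rise of 3 or more, the median was -0.25 and the share 61.1%. Among the 876 genes with a mean fall of 1 to 2, the median difference was 0.38 and 70.4% had the smaller response in ARNoC. For falls of less than 1 these were -0.01 and 47.6%, for falls of 2 to 3 they were 0.31 and 63.2%, and for falls of 3 or more -0.03 and 45.5%. With libraries scaled by their total counts, rises of less than 1 had a median of 0.04 and a share of 40.9%. Falls of less than 1 then had 0.07 and 63.7%, and falls of 1 to 2 had 0.45 and 75.5%. With the mean level of fibroblast and smooth muscle markers in each library as a covariate, the median of the class that fell by 1 to 2 was 0.02 and the share 53.0%. For rises of less than 1 this covariate gave 0.00 and 49.3%. The slope over all responsive genes was then 1.01, and across the other alternatives it lay between 0.82 and 0.95. In bulk tissue, fewer cells of a type and less RNA per cell cannot be told apart.

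Cyp2b10 shared the lowest adjusted p and is a cytochrome P450 of xenobiotic and steroid metabolism (chromosome 7, 25897620 to 25926624, plus strand, mm10). Its normalized counts with vehicle in WT were 295, 173, 226, 179 and 183, and with testosterone 1026, 1304, 692, 915 and 712. In ARNoC they were 435, 440, 245, 342 and 624 with vehicle and 546, 513, 326, 338 and 597 with testosterone. Every WT testosterone library was above every other library, while the 2 ARNoC groups overlapped. The vehicle mean was 417 in ARNoC and 211 in WT. Cyp2b10 rose 4.42-fold in WT, and the ARNoC ratio was 1.11 (adjusted p = 0.639). The difference of responses was -1.99 (log2; SE 0.33; 95% interval -2.68 to -1.29; adjusted p = 0.0666), and it ranged from -2.13 to -1.79 when each library was left out in turn. DESeq2 called it (adjusted p = 1.64e-05), and the adjusted p ran from 1.64e-05 to 0.392 over the fitted alternatives. In the exact permutation test its unadjusted p was 0.000126 and its adjusted p 0.412, the lowest value that any gene reached. A lone gene could not be called by that test, so its adjusted p says little about a single gene, here and below. Cyp2b10 and Mug1 belong to families of similar genes, and how shared reads were counted is not known here.

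P2rx6, an ATP-gated ion channel subunit (chromosome 16, 17561885 to 17577800), moved in opposite directions. WT libraries held 721, 559, 702, 715 and 629 with vehicle and 918, 954, 1120, 869 and 870 with testosterone. ARNoC libraries held 385, 541, 467, 480 and 462 with vehicle and 325, 348, 174, 370 and 325 with testosterone. None of the 4 groups overlapped another. P2rx6 rose 1.43-fold in WT and fell 1.5-fold in ARNoC, a difference of -1.10 (log2; 95% interval -1.52 to -0.68; adjusted p = 0.0903). Without ARNoC testosterone library 3, which was lowest at 174, the difference was -0.96 and passed the test (adjusted p = 0.0188). Over the fitted alternatives its adjusted p ran from 0.000446 to 0.414, and in the exact permutation test it was 0.687. That permutation supposes no genotype effect in either treatment, so a genotype difference in level, as in P2rx6, widens its spread.

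**Figure D2:**
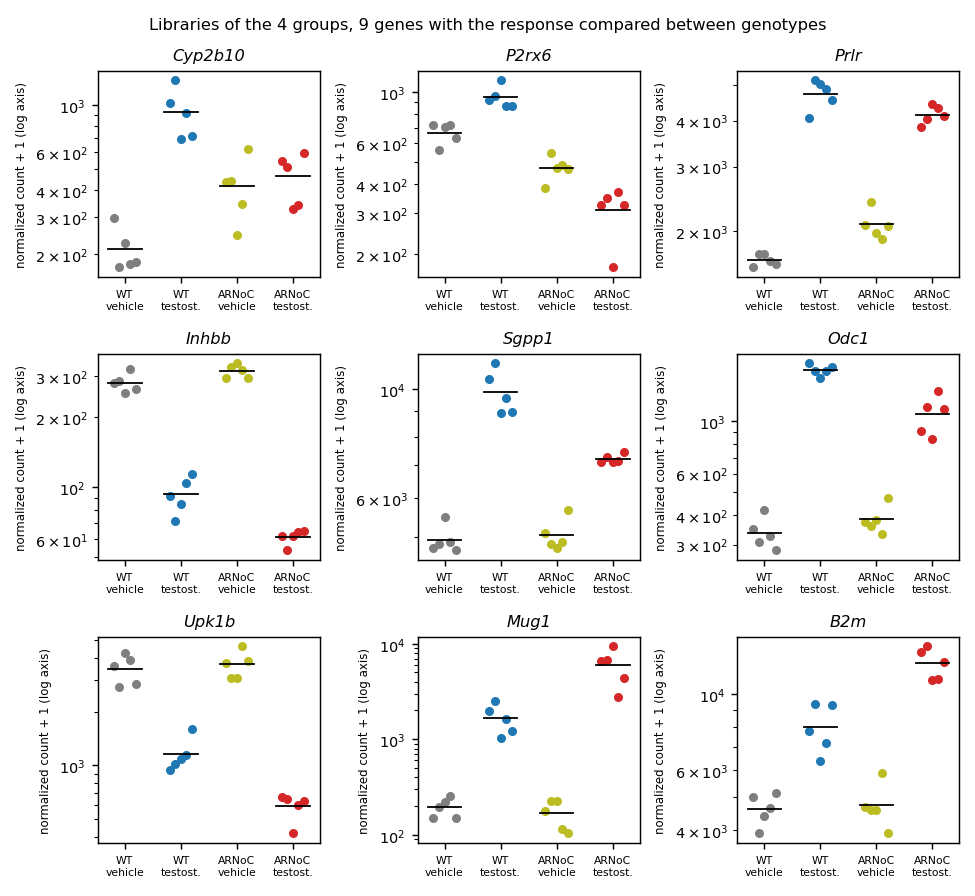
Normalized counts plus 1 (vertical, log axis) of 9 genes in the 5 libraries of each group, with the mean of each group as a line. Cyp2b10 is highest in the 5 WT testosterone libraries, at 692 to 1304, against at most 624 elsewhere, while for Sgpp1, Odc1 and Mug1 the vehicle groups overlap and the testosterone groups do not.

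Sgpp1, Inhbb and Prlr were also among the genes of smallest p. All 3 responded in both genotypes, and their differences did not pass the test. Sgpp1, a phosphatase of sphingosine-1-phosphate (chromosome 12, 75714249 to 75735729), held 8937 to 11275 in WT with testosterone and 7099 to 7439 in ARNoC, with vehicle values of 4701 to 5491 and 4754 to 5669. It rose 2.01-fold and 1.43-fold, a difference of -0.49 (95% interval -0.70 to -0.27, adjusted p = 0.194). Inhbb, the beta B subunit of inhibins and activins, is a secreted signal of the TGF-beta family (chromosome 1, 119415465 to 119422248). Its values with testosterone were 90.8, 70.7, 83.8, 103 and 113 in WT and 60.6, 52.7, 60.9, 63.6 and 64.1 in ARNoC. The vehicle values were 252 to 321 and 293 to 340, so the genotypes overlapped with vehicle and not with testosterone. Inhbb fell 3.0-fold in WT and 5.18-fold in ARNoC, a difference of -0.79 (95% interval -1.11 to -0.46, adjusted p = 0.168).

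Prlr encodes the prolactin receptor, through which the pituitary hormone acts on prostate epithelium (chromosome 15, 10177238 to 10349180). Its vehicle levels did not overlap between the genotypes, while the adjusted p of that difference was 0.0577. With vehicle, WT libraries held 1598, 1741, 1737, 1662 and 1633 and ARNoC libraries 2081, 2400, 1986, 1908 and 2072. With testosterone the ranges were 4068 to 5149 and 3832 to 4451, and they overlapped. Prlr rose 2.84-fold in WT and 2.0-fold in ARNoC, a difference of -0.51 (95% interval -0.72 to -0.30, adjusted p = 0.168).

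Upk1b and Mug1, both picked after their values were seen, had larger responses in ARNoC. Upk1b, a tetraspanin of the uroplakin family, fell 2.96-fold in WT, to 939, 1023, 1087, 1149 and 1600, and 6.18-fold in ARNoC, to 662, 645, 417, 599 and 634. The vehicle groups overlapped, at 2752 to 4233 and 3071 to 4639, and the difference was -1.06 (95% interval -1.53 to -0.59, adjusted p = 0.194). Mug1, a secreted protease inhibitor of the alpha-macroglobulin family, rose 8.61-fold in WT, to 1952, 2489, 1027, 1642 and 1212. In ARNoC it rose 35.3-fold, to 6603, 6814, 9412, 2742 and 4397, from vehicle values of 103 to 227 against 150 to 254 in WT. All 5 ARNoC testosterone libraries were above all WT ones, and the difference was 2.04 (95% interval 1.13 to 2.94, adjusted p = 0.194).

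The sequences around the transcription starts of 4 of these genes are shown because the androgen receptor binds pairs of a half-site whose common form is TGTTCT. They were picked to show 3 windows with it and 1 without. They are RefSeq promoters on GRCm38.p6, 300 bases each, from 250 bases before the start to 50 after it, read 5′ to 3′ on the strand of the gene. Capitals mark TGTTCT or its reverse complement AGAACA.
Prlr, second of 3 starts, chr15:10223656-10223955, plus strand: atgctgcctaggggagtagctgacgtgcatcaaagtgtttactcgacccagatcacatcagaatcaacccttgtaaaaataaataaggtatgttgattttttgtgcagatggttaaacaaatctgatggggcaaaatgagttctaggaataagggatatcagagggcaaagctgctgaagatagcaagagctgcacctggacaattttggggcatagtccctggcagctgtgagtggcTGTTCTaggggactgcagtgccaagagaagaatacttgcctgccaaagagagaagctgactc
Sgpp1, chr12:75735680-75735979, minus strand: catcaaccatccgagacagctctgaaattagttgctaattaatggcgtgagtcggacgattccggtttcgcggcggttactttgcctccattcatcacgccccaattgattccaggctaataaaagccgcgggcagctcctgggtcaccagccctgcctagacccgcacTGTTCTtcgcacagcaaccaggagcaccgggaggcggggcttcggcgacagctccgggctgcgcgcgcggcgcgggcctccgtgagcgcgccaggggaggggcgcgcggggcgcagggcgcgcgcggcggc
Mug1, chr6:121838291-121838590, plus strand: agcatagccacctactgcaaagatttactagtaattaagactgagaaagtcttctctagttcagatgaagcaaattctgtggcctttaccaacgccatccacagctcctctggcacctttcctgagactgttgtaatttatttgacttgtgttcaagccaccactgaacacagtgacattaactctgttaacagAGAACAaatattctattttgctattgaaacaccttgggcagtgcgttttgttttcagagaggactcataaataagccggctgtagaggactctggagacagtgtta
Cyp2b10, chr7:25897408-25897707, plus strand: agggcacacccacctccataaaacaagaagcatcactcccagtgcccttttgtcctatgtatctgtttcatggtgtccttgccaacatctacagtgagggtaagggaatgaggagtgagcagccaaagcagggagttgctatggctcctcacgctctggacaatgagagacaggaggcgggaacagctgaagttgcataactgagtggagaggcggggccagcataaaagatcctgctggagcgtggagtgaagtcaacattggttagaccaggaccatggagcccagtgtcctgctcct
Counting the start as 0, the match begins at -12 in Prlr, -81 in Sgpp1 and -56 in Mug1. No match lies in the window of Cyp2b10 or in those of the other 2 starts of Prlr. Of the 20 genes of smallest p with a mean of at least 50 in a group, 14 had a RefSeq promoter and 8 of these held TGTTCT on either strand in at least 1 start. The hexamer stood in 6233 of all 32851 promoters (19.0%) and in 21.3% of 27025 genes. A match is a description of these letters and not a bound site.

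Androgen target genes from a list of known targets showed no common direction. Of 69 tested, 49 had an interval within 2-fold (71.0%, against 69.9% of all genes), and the median difference was 0.04 (0.01 for all genes). At an unadjusted p under 0.05 there were 6 higher and 6 lower, against 3.28% and 5.27% of all genes.

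Fkbp5, a co-chaperone of steroid receptors and a direct androgen target, had nearly the same response in both genotypes. It held 1491, 1843, 1434, 1588 and 1481 in WT with vehicle and 8441, 9952, 7266, 9630 and 7587 with testosterone. ARNoC libraries held 1859, 1787, 1727, 1429 and 1664, then 9265, 10924, 10501, 8283 and 8672. The rises were 5.50-fold and 5.65-fold, and the 95% interval of the difference, -0.27 to 0.35, lay within 1.5-fold. Timp4, a metalloproteinase inhibitor, rose 9.20-fold and 10.2-fold, with an interval of -0.28 to 0.57. Tmprss2, a membrane serine protease, fell 1.68-fold and 1.61-fold, with an interval of -0.24 to 0.35.

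Zbtb16, a zinc finger transcription factor that glucocorticoids also induce, had a higher vehicle level in ARNoC and a smaller fold rise there. With vehicle it held 198, 226, 237, 221 and 261 in WT and 298, 354, 300, 270 and 312 in ARNoC, with no overlap. With testosterone the ranges were 1027 to 1270 and 967 to 1247, which overlapped. Zbtb16 reached 1157 ± 91.0 and 1164 ± 117 (SD, n = 5) from vehicle means of 229 ± 22.9 and 307 ± 30.6, rises of 5.08-fold and 3.80-fold. Its difference was -0.42 (95% interval -0.67 to -0.16, adjusted p = 0.394).

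Odc1, which encodes ornithine decarboxylase, the first enzyme of polyamine synthesis (chromosome 12, 17544794 to 17551505), overlapped between genotypes with vehicle and not with testosterone. WT libraries held 347, 306, 421, 324 and 283 with vehicle and ARNoC libraries 373, 360, 380, 333 and 472. With testosterone they held 1758, 1627, 1520, 1623 and 1691 in WT and 905, 1148, 843, 1347 and 1120 in ARNoC, with no overlap. Odc1 rose 4.90-fold and 2.81-fold, a difference of -0.80 (SE 0.17; 95% interval -1.16 to -0.44; adjusted p = 0.194). DESeq2 called it (adjusted p = 0.00875), and over the fitted alternatives the adjusted p ran from 0.00875 to 0.525, and in the exact permutation test it was 0.498. Of 19 tested genes of the polyamine and methionine cycle, only Odc1 had an unadjusted p under 0.05. Over all genes 5.27% were lower and 3.28% higher, so this count is near the share of all genes. An interval within 2-fold was found for 17 of the 19 (89.5%, against 69.9% of all genes).

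Spink3, Abo, Msmb and Pbsn, among the genes of secretory products, rose in both genotypes. Spink3, a secreted trypsin inhibitor and the most abundant of the fixed genes (GENCODE M21 names it Spink1), rose 224-fold in WT and 112-fold in ARNoC. Its vehicle values were 1797 to 5519 and 3122 to 14436 and its testosterone values 615090 to 1136624 and 636793 to 877407, so both treatments overlapped. The difference was -1.0 (95% interval -1.99 to -0.01), and -0.53 without ARNoC vehicle library 5. Abo, a glycosyltransferase, rose 68.4-fold and 47.1-fold with a difference of -0.54 (95% interval -0.95 to -0.12, adjusted p = 0.477). Msmb and Pbsn, secreted proteins abundant in other lobes, spread widely between libraries. The difference was -0.09 for Msmb (95% interval -1.46 to 1.29) and 0.04 for Pbsn (95% interval -1.74 to 1.81), so a 2-fold difference was not detectable. Of 26 secretory genes tested, 8 had an interval within 2-fold (30.8%, against 69.9% of all genes).

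Car2, Gas6, Clu and Igfbp3 fell in both genotypes, with differences of either sign. Car2, a carbonic anhydrase, fell 51.7-fold in WT to 280 to 530 and 75.3-fold in ARNoC to 143 to 255. Its testosterone groups did not overlap, and the difference was -0.54 (95% interval -1.10 to 0.02). Gas6, a ligand of TAM receptors, fell 2.78-fold and 1.90-fold, a difference of 0.55 (95% interval 0.04 to 1.05, adjusted p = 0.547). Clu, which encodes the extracellular chaperone clusterin, had a difference of -0.26 (95% interval -1.05 to 0.53), and Igfbp3, a binding protein of insulin-like growth factors, one of 0.05 (95% interval -1.29 to 1.39). Sgk1, a kinase gene that glucocorticoids induce, rose 4.05-fold and 6.18-fold, a difference of 0.61 (95% interval 0.02 to 1.20, adjusted p = 0.564).

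**Figure D3:**
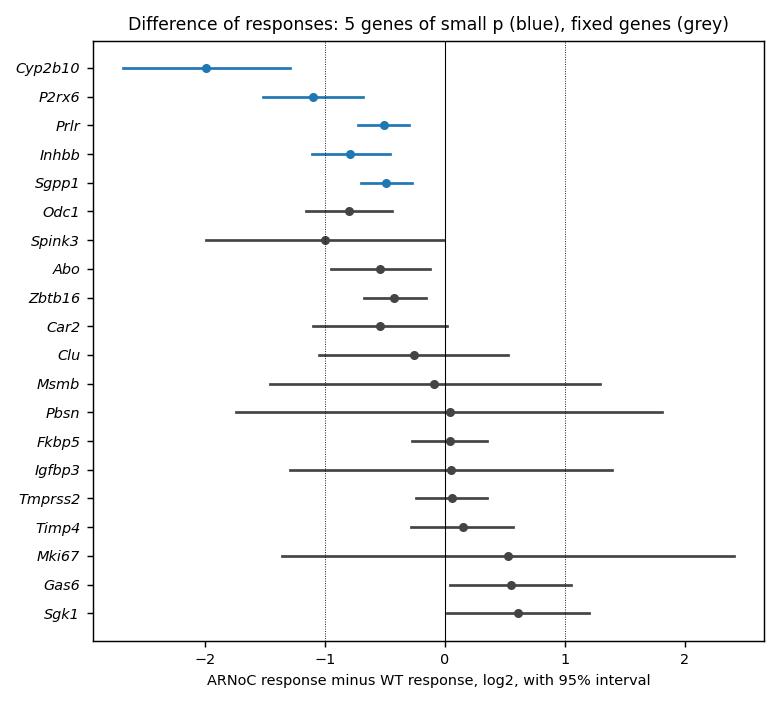
Difference of responses (horizontal axis, log2, ARNoC minus WT) with its 95% interval for 5 genes of small p (blue) and 15 genes fixed in the naming rule (grey), with dotted lines at a 2-fold difference. The intervals of Fkbp5 and Tmprss2 lie well inside 2-fold, and those of Pbsn, Msmb, Igfbp3 and Mki67 reach beyond it.

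Cofactors of the receptor had small differences. Of 49 steroid receptor and coregulator genes tested, 46 had an interval within 2-fold (93.9%, against 69.9% of all genes), and at an unadjusted p under 0.05 there were 0 higher and 8 lower, among them Nrip1, Ncoa1, Esr2, Kdm4c, Kdm1a, Trim68 and Pias3, where all genes had 3.28% higher and 5.27% lower. The median of the list was -0.04, and 0.04 with total-count scaling, which moved the median of all genes from 0.01 to 0.08. Nrip1, a corepressor of nuclear receptors chosen after its values were seen, held 5554, 6085, 5740, 5712 and 5313 with testosterone in WT and 3891, 4604, 3634, 4472 and 4400 in ARNoC, with no overlap. It rose 3.92-fold and 2.82-fold, a difference of -0.47 (95% interval -0.73 to -0.22, adjusted p = 0.335). Among growth factor and receptor genes, 44 were tested, 24 with a positive and 20 with a negative difference and a median of 0.02. Inhbb, Erbb2, Notch1 and Erbb3 had an unadjusted p under 0.05, all lower, where 5.27% of all genes were. Erbb2, a receptor tyrosine kinase, had a difference of -0.38 (95% interval -0.63 to -0.14).

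Genes of protein folding and export in the endoplasmic reticulum, which serve secretion, responded in both genotypes, with a median response of 0.96 in WT and 0.88 in ARNoC (log2). Of 70 tested, 68 passed the test of the mean response, which 52.2% of all genes passed. An interval within 2-fold was found for 67 (95.7%, against 69.9% of all genes), 64 had a negative difference and the median was -0.13. With total-count scaling 50 were negative and the median was -0.05, and with the stromal covariate 47 were negative and it was -0.04. At an unadjusted p under 0.05 there were 5 lower, Copg1, Srpr, Lman1, Sec62 and Uggt1, and 1 higher, Creb3l1, against 5.27% and 3.28% of all genes. Copg1, a subunit of the COPI coat, had a difference of -0.27 (95% interval -0.44 to -0.10). Genes of cholesterol synthesis leaned the other way, with 20 of 24 positive and a median of 0.20, and 22 of the 24 had an interval within 2-fold (91.7%, against 69.9% of all genes). At an unadjusted p under 0.05 there were 5 higher, among them Cyp51, Idi1, Acat2 and Nsdhl, and 1 lower, Dhcr7, against 3.28% and 5.27% of all genes. Creb3l1 and Idi1 were looked at after their values were seen. Cyp51, the lanosterol demethylase, had a difference of 0.47 (95% interval 0.08 to 0.87).

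Antigen presentation and interferon genes leaned to higher values in the ARNoC response. Of 44 tested, 38 had a positive difference and the median was 0.33, and at an unadjusted p under 0.05 there were 13 higher and 0 lower, where 3.28% of all genes were higher. B2m, the light chain of MHC class I, held 7824, 9396, 6390, 7209 and 9301 in WT with testosterone and 13333, 13843, 10984, 11097 and 12438 in ARNoC, with no overlap. Vehicle values were 3913 to 5121 and 3909 to 5886. B2m rose 1.75-fold and 2.63-fold, a difference of 0.58 (95% interval 0.25 to 0.92, adjusted p = 0.365). H2-K1, a class I heavy chain, rose 1.41-fold in ARNoC and had a WT ratio of 1.10 (adjusted p = 0.264), a difference of 0.36 (95% interval 0.07 to 0.64). Tapbp, which helps load peptides onto class I, fell 1.22-fold in WT with an ARNoC ratio of 1.04 (adjusted p = 0.591) and had a difference of 0.34 (95% interval 0.14 to 0.54). B2m, H2-K1 and Tapbp were named after their values were seen. The median of the list was 0.24 with the stromal covariate and 0.40 with total-count scaling.

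Markers of myeloid cells moved with the interferon list. All 20 tested macrophage and myeloid markers had a positive difference, with a median of 0.85. At an unadjusted p under 0.05 there were 4 of them (Cd68, Ctss, Fcer1g and C1qc), where 3.28% of all genes were higher. Their summed level ran from 4703 to 24141 with vehicle and 2351 to 4719 with testosterone in WT, and from 4344 to 16378 and 3595 to 6969 in ARNoC, with no member at 0 throughout a group. Their part in the values of the interferon genes was not tested. Fibroblast markers had a median difference of 0.77 (21 of 22 positive) and endothelial markers one of 0.78 (18 of 18). No interval of either list lay inside 2-fold, against 69.9% of all genes, so these intervals leave room for a 2-fold difference. At an unadjusted p under 0.05 there were 1 higher and 1 lower fibroblast marker. For endothelial markers there were 1 higher and 0 lower, where 3.28% of all genes were higher and 5.27% lower. Markers of a list share the same libraries, so their signs are not independent. Of the other tissues, adipocyte markers had a median of 0.64 (12 of 12 positive) and erythroid genes 1.13 (5 of 5). In both of these lists 0 genes had an unadjusted p under 0.05. Lymphocyte markers had a median of -0.23 (7 of 12 negative) and skeletal muscle genes -1.34 (9 of 13 negative), whose summed level ran from 160 to 16695 within WT vehicle. With the stromal covariate, which is made from the fibroblast and smooth muscle markers themselves, the medians were -0.03 for fibroblast, 0.29 for endothelial and 0.30 for myeloid markers. Of the luminal markers, 13 of 15 had an interval within 2-fold (86.7%, against 69.9% of all genes).

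**Figure D4:**
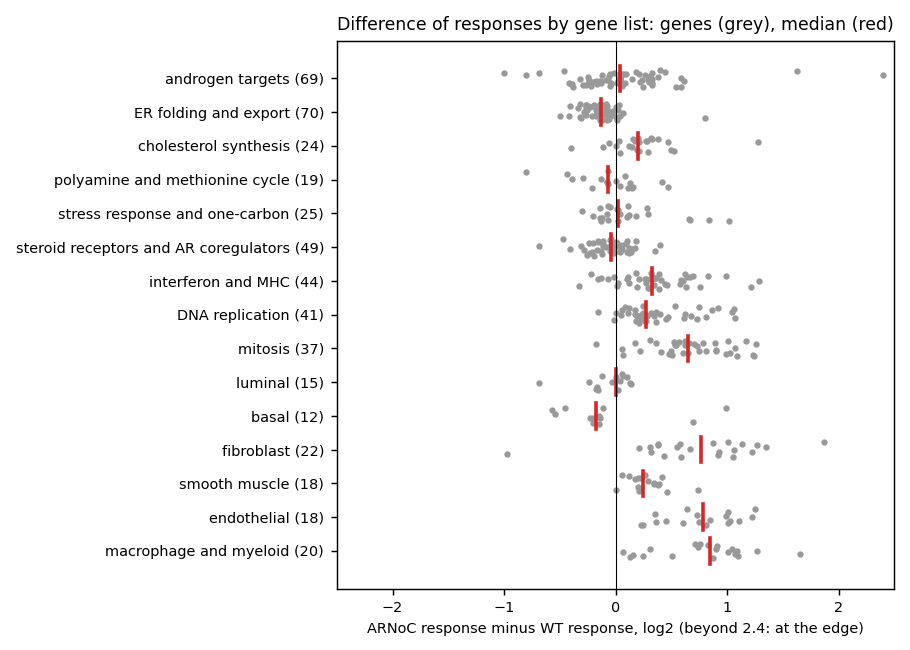
Difference of responses (horizontal axis, log2, ARNoC minus WT) for each tested gene of 15 lists (grey points, number tested in brackets) with the median of the list (red). Endoplasmic reticulum genes sit just below 0, while fibroblast, endothelial and myeloid markers have medians of 0.77, 0.78 and 0.85.

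Mitosis genes varied widely between libraries. Of 37 mitosis genes 36 had a positive difference with a median of 0.65, yet 0 had an unadjusted p under 0.05. An interval within 2-fold was found for 1 (2.70%, against 69.9% of all genes). With testosterone their summed level ran from 1358 to 4493 in WT and from 1250 to 6630 in ARNoC. Mki67, the proliferation marker, held 81.6, 100, 551, 347 and 108 in WT with testosterone and 103, 210, 512, 843 and 65.3 in ARNoC. WT libraries 3 and 4 and ARNoC libraries 3 and 4 were the high ones, and the 95% interval of the difference was -1.36 to 2.41. Of 41 DNA replication genes, 38 had a positive difference with a median of 0.27, and 21 had an interval within 2-fold (51.2%, against 69.9% of all genes). At an unadjusted p under 0.05 there were 2 higher and 0 lower, against 3.28% and 5.27% of all genes.

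Several of the largest differences rested on few libraries. Sprr1a, a cornified envelope gene of squamous epithelium, had a difference of -7.10, Psca, a surface antigen, -4.73 and the urothelial gene Upk2 -4.29. WT testosterone library 5 held 527, 627 and 213 of these and ARNoC vehicle library 5 held 623, 468 and 198, the highest of their groups. Without both libraries the differences were 0.63, 0.86 and -0.01. Upk2 and Ly6d were picked after their values were seen. At the other end, 9530053A07Rik had a difference of 9.43 and Tgm4, a transglutaminase of the anterior and dorsal lobes, one of 5.73 (adjusted p = 0.381). Tgm4 held 238, 4670, 1027, 24.0 and 47.5 in ARNoC with testosterone and 46.2, 23.6, 160, 47.0 and 32.5 in WT. Without ARNoC testosterone library 2 and WT vehicle library 2 the differences were 2.02 for 9530053A07Rik and 2.4 for Tgm4. Crym and Fgl1, listed as markers of other lobes, were picked after their values were seen. Crym had a difference of 2.24 (95% interval 1.05 to 3.43) and Fgl1 one of 1.99 (95% interval 0.88 to 3.11). Crym fell 12.8-fold in WT, to 1.54 to 14.1, and 2.73-fold in ARNoC, to 24.6 to 53.1. With testosterone Fgl1 held 7.05 to 26.4 in WT and 52.1 to 166 in ARNoC. For both genes the vehicle groups overlapped and the testosterone groups did not. Leaving out 1 library gave at least 1.97 for Crym and 1.58 for Fgl1. edgeR did not call Crym (adjusted p = 0.334), and DESeq2 did (adjusted p = 0.037). The part of other lobes in these libraries was not tested. Of the 10 tested markers of other lobes, 6 had a positive and 4 a negative difference, with a median of 0.64. At an unadjusted p under 0.05 there were 4 higher and 0 lower, against 3.28% and 5.27% of all genes. Without ARNoC testosterone library 2 and WT vehicle library 2, 5 were positive and 5 negative, with a median of -0.08.

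**Figure D5:**
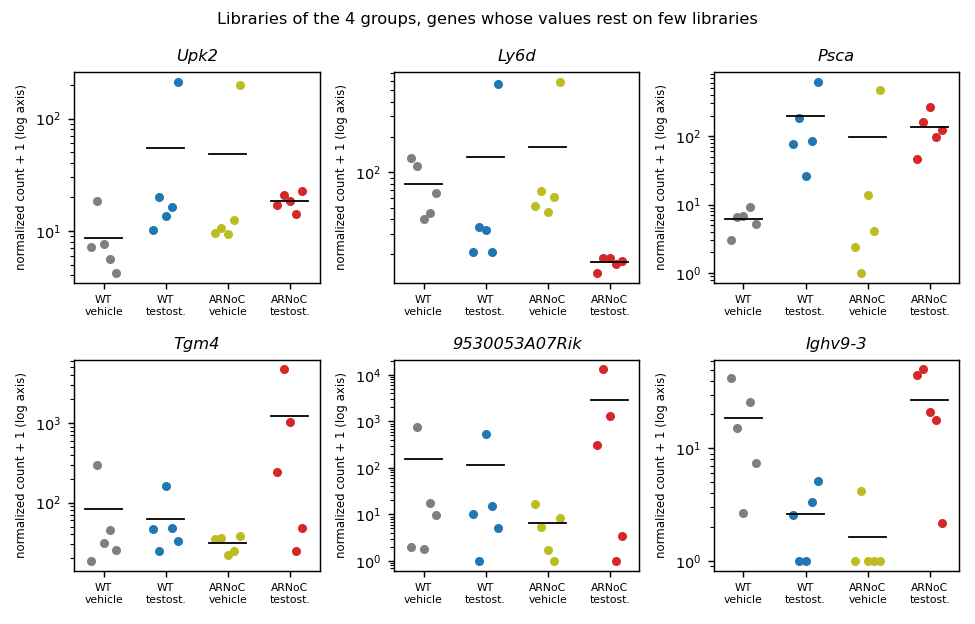
Normalized counts plus 1 (vertical, log axis) of 6 genes in the 5 libraries of each group, with the mean of each group as a line. Single libraries lift Upk2, Ly6d and Psca in WT testosterone and ARNoC vehicle, and Tgm4 spans 24.0 to 4670 in ARNoC testosterone.

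Gm7714, a predicted protein-coding gene (chromosome 5, 88268919 to 88282835), shared the lowest adjusted p of 0.0666. It was nearly lost in ARNoC with testosterone, at 0, 3.51, 1.17, 1.20 and 0, while ARNoC with vehicle held 126 to 230. WT libraries held 368, 786, 717, 692 and 795 with vehicle and 363, 1300, 329, 133 and 141 with testosterone. The difference was -6.45 (95% interval -9.87 to -3.03) on the log scale and -3.74 with limma-trend at a pseudocount of 5, and on the linear scale the difference was 52.81 normalized counts, so the sign turned. Leaving out WT testosterone library 2, 4 or 5 in turn brought the adjusted p under 0.05, with a lowest value of 0.00255, and over the other fitted alternatives the adjusted p ran from 1.08e-07 to 0.488. In the exact permutation test it was 0.625. Immunoglobulin segments, which follow the plasma cells present in a piece of tissue, also stood among the large differences. Ighv9-3 had one of 8.07 (adjusted p = 0.0791) with a highest group mean of 26.1, Igkv10-96 one of 6.69 and Ighv11-2 one of 5.43. Leaving out 1 library moved Igkv10-96 to 4.45 (without WT vehicle library 4) or 10.24 (without WT testosterone library 4) and Ighv11-2 to 3.23 (without WT vehicle library 3). With limma-trend at a pseudocount of 5 the values were 3.66 for Ighv9-3, 3.82 for Igkv10-96, 3.19 for Ighv11-2 and -3.21 for Capn11. Capn11, a calpain protease gene, had a difference of -6.45 with ARNoC vehicle values of 0, 1.27, 97.3, 48.1 and 111.

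Genes with opposite responses were few. Of the 11 whose response intervals excluded 0 in opposite directions, all named here after their values were seen, Ighv9-3, Raly, C1qtnf6, Sipa1l2 and Cdkn1a had a negative value in WT and a positive one in ARNoC. P2rx6, Dlg3, Smarcd2, Cemip, Trim3 and Rnf144b had the reverse. Raly, an RNA-binding protein gene, held 876 to 939 with testosterone in WT and 1098 to 1260 in ARNoC, without overlap, and its difference was 0.37 (95% interval 0.21 to 0.54, adjusted p = 0.194). Cdkn1a, the cell-cycle inhibitor p21, had responses of -0.75 and 0.76 (log2) and a difference of 1.51 (95% interval 0.48 to 2.54, adjusted p = 0.408). Cyp2b10, Gm7714, P2rx6, Prlr, Inhbb, Sgpp1, Odc1, Upk1b, Mug1, Raly and Dlg3 were among the 29 genes that DESeq2 called, as was Tgm4.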

How the data were processed

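RNA of snap-frozen ventral prostate was sequenced from Illumina TruSeq libraries. Raw counts of 43472 genes were deposited, made with HISAT2 and HTSeq on mm10 per the submitters' processing notes. Annotation and strand setting: not given in the sources used here. Normalized counts, a signal scaled by 1 size factor per library, were deposited for 23221 genes. Sample columns left unmatched numbered 0. In each of the 40 pairs of replicates the counts differed beyond counting error (chi-square per degree of freedom 7.97 to 42.7).

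Genes reaching 10 normalized counts in 5 or more of the 20 libraries were fitted on the raw counts with edgeR 4.0.16 in R 4.3.3 (TMM scaling, 1 mean per group, quasi-likelihood F-test, Benjamini-Hochberg at 0.05 over 15261 genes). Intervals are Wald intervals of that fit at 95%. Library values are the deposited normalized counts. The response score and the slope (first principal axis of the pair of responses) are descriptions. An exact permutation of genotype within treatment on log2(normalized count + 1), adjusted over all genes and not over the named genes alone as planned, was run too. It supposes no genotype effect in either treatment, not only equal responses, so genotype differences in level widen its spread. Alternatives were DESeq2 1.42.0, limma 3.58.1 (trend with pseudocounts of 1 and 5, and voom), other scalings and filters, 2 covariates and leaving out libraries. 3 sets of left-out libraries were chosen after seeing the data.

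Genes were named by rule: the 6 uncalled genes of smallest adjusted p and the 4 most extreme differences in either direction, among genes whose highest group mean reached 50, and 16 fixed genes. Some further genes are not reported here. Others are said to be chosen later. The members and gene lists were chosen with earlier results of these data known. Promoters are RefSeq, coordinates GENCODE M21.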

Additional observations from a re-analysis of the deposited data

Results flagged for a closer look

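In 21 of 208 groups of 5 libraries, taken over the named genes, 1 library lay far from the other 4 by Dixon's test. The scale was log2(normalized count + 1). A rate of 1 in 20 gives about 10. Many of these genes were chosen after their values were seen, and all share the same libraries, so the 21 cannot be judged against that rate. The values below are normalized counts. Upk1a and Steap4 were picked after their values were seen.

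ARNoC testosterone library 3 stood apart for P2rx6 (174, others 325 to 370), Upk1b (417, others 599 to 662), Upk1a (3328, others 5961 to 6488) and Steap4 (1060, others 241 to 301). Without it the difference was -0.96 for P2rx6. ARNoC testosterone library 2 stood apart for Inhbb (52.7, others 60.6 to 64.1), Dlg3 (1571, others 1326 to 1371), H2-K1 (13677, others 10788 to 11548) and Fgl1 (166, others 52.1 to 72.6). ARNoC testosterone library 1 was high in Crym (53.1, others 24.6 to 28.5).

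WT testosterone library 5 was high in Upk2 (213, others 9.24 to 18.9) and Ly6d (565, others 20 to 33.0), and ARNoC vehicle library 5 was high in Upk2 (198, others 8.36 to 11.5), Ly6d (594, others 44.8 to 67.8) and Sprr1a (623, others 4.31 to 15.7). ARNoC vehicle library 2 was alone in having any count of Ighv9-3 in its group (3.17).

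WT vehicle library 2 was high in Sgk1 (709, others 425 to 493) and Sprr1a (42.8, others 14.1 to 19.5). WT vehicle library 3 was high in Sgpp1 (5491, others 4701 to 4893) and Timp4 (503, others 350 to 371) and low in Steap4 (645, others 900 to 923). WT vehicle library 1 was low in Gm7714 (368, others 692 to 795).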

How the results depend on the processing

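The count of genes called was 0 by edgeR and stayed 0 in the alternatives not named here. It was 29 with DESeq2, 2 with total-count scaling, 1 with limma-trend at a pseudocount of 1, 1 with the mitosis score as a covariate and 1 without the 3 stroma-poor libraries, and 0 to 2 when each library was left out in turn. The exact permutation test called 0, with 1164 genes at an unadjusted p under 0.05 and a lowest adjusted p of 0.412. Its 63504 arrangements allow no p below 3.15e-05, so over 15261 genes a lone gene could not be called by it. Its count of 0 therefore says little about single genes. The cause of the differing counts was not tested. The count inside 2-fold ran from 10166, with 12123 genes tested under the filter at 50, to 11566 with limma-trend at a pseudocount of 5. Single calls were Gm7714 without WT testosterone library 2, 4 or 5, Cyp2b10 without ARNoC vehicle library 3, P2rx6 without ARNoC testosterone library 3, and Ighv9-3 and Pitpnm2 without WT vehicle library 3. Over 52 named genes, each taken with each alternative, 49 of 1917 values turned the sign, in 11 genes. Without both Upk2-high libraries the difference was 0.63 for Sprr1a, 0.86 for Psca, -0.00 for Fkbp5 and 0.09 for Msmb. Without both Tgm4-high libraries it was -0.08 for Fkbp5 and -0.67 for Pbsn. Without both stroma-poor vehicle libraries it was -0.03 for Fkbp5 and -0.65 for Pbsn, and without the 3 stroma-poor libraries -0.58 for Pbsn and -0.23 for Igfbp3. The stromal covariate gave 0.01 for Msmb and -0.48 for Igfbp3, and the mitosis covariate 0.04 for Msmb and -0.30 for Mki67. On the linear scale it was 52.81 for Gm7714, 21695 for Msmb, 5837 for Car2 and -24.22 for Igfbp3. Leaving out 1 library gave -0.03 to 0.10 for Fkbp5, -0.50 to 0.69 for Pbsn, -0.31 to 0.19 for Msmb, -0.02 to 0.13 for Tmprss2, -0.13 to 1.08 for Mki67, -0.43 to 0.17 for Clu and -0.46 to 0.40 for Igfbp3. No paired analysis was possible because the labels give no replicate numbers. The intervals that reach beyond 2-fold belong to genes with a median level of 28.5 normalized counts, and the part of depth was not tested.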
